A study of Mus musculus with 4 samples.

Results

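The contractile genes of the embryonic heart were examined in mouse embryonic stem (ES) cells that had begun to differentiate and were sorted into 2 fractions. The 10 genes were fixed as a list by name, chosen with earlier results of these data known. They were the myosin light chains Myl7, Myl4 and Myl3, the myosin heavy chains Myh6 and Myh7, the cardiac actin Actc1, the troponin genes Tnnt2, Tnnc1 and Tnni1, and the Z-disc actinin Actn2. Every probe whose RefSeq accession mapped to 1 of these symbols was taken, which gave 11 probes of 55681 on the array: 2 for Myh6 and 1 for each of the other genes. All 10 genes had a probe in the test, among 23547 features tested in all.

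The line was EB5 with a reporter that makes the fluorescent protein Venus under Hoxb6, a Hox gene active in the trunk, and it was cultured for 6 days on OP9 cells, a mouse bone marrow stromal line used as a feeder layer. Sorting used an antibody to Flk-1 (the product of Kdr), a VEGF receptor found on mesoderm with vascular, blood and heart potential. The groups were the Flk-1+Hoxb6-Venus- fraction and the Flk-1+Hoxb6-Venus+ fraction, each with 2 single-colour Agilent arrays, and both carried the reporter and had met the same feeder cells. The labels do not say whether replicates were separate cultures; the p-values reflect the spread between these samples alone, and that spread may be technical.

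The sarcomere is the repeating contractile unit of striated muscle. Thick filaments of myosin, each head carrying a regulatory and an essential light chain, pull on thin filaments of actin. The troponin complex on the thin filament makes the pull depend on calcium, and alpha-actinin anchors the thin filaments at the Z-disc. In the embryo many of these genes are first switched on in the forming heart tube, and several are also used in skeletal muscle: Myl4 and Actc1 are expressed in embryonic skeletal muscle, and Tnni1, Tnnc1, Myl3 and Myh7 in slow skeletal fibres. The genes of the heart programme are known to be controlled in part by serum response factor (SRF), which binds the CArG box, and by GATA factors.

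The sequence before the transcription start was read from RefSeq for all 10 genes, which had 13 distinct start sites in the table (build GRCm38.p6). The 250 bases before each start were searched on both strands, with a palindromic match counted as 1 site. The CArG box was found in 3 of the 13 windows, those of Myl7, Actc1 and Myl3, while 1.47% of the 32851 windows of this length in the table held one. These 3 windows are shown because they belong to genes with very different behaviour between the fractions (not well above background in 1 fraction for Myl7, widely spread for Actc1, and overlapping for Myl3). Capitals mark the CArG box, and in Myl7 also a GATA motif downstream of it.
Myl7: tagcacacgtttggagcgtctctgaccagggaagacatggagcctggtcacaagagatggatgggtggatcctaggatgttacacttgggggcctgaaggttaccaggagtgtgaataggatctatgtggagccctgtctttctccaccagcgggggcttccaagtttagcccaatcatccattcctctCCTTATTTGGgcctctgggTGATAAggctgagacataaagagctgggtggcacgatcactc
Actc1: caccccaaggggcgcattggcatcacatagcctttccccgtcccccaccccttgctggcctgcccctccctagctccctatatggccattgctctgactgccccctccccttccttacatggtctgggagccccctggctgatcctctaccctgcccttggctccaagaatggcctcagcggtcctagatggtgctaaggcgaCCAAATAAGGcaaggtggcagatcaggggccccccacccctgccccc
Myl3: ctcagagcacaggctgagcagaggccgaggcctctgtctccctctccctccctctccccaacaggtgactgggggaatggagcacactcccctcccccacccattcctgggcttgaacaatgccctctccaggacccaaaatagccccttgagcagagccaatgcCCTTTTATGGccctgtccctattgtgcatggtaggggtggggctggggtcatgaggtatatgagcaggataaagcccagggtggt
The Myl7 window lies at chr11:5898783-5899032, minus strand, that of Actc1 at chr2:114052876-114053125, minus strand, and that of Myl3 at chr9:110763428-110763677, plus strand. The CArG box of Myl7, CCTTATTTGG, spans bases 61 to 52 before the start. In Actc1 the box CCAAATAAGG spans bases 47 to 38, and in Myl3 the box CCTTTTATGG spans bases 85 to 76. The GATA motif was searched as GATA with A or T before it and A or G after it. It was in 3 of the 13 member windows, of Myl7, Myh6 and Tnnt2, and in 26.5% of all windows. The Nkx2-5 motif AAGTG was in 6 of the 13 member windows (5 of the 10 genes) against 40.7% of all windows. The E-box CANNTG was in 11 of the 13 (8 genes) against 66.2%. The MEF2 motif and TATAAA were found in none of the member windows and in 0.508% and 12.4% of all windows. A match is only a description of these letters, not evidence of binding.

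Levels are given as the log2 processed signal relative to the 75th percentile of the array, so that a value of 0 is the brightness of that percentile. They compare arrays for 1 gene and not genes with each other, since probes differ in brightness. The lowest level that counted as well above background was between -5.17 and -4.75 on the 4 arrays. The differences below are Venus-positive minus Venus-negative, on the log2 scale, with the moderated standard error (SE) and a Benjamini-Hochberg adjusted p from limma fitted over all features. Because these are bulk RNA samples, fewer cells of a type and less RNA per cell cannot be told apart.

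Of the 10 sarcomere genes, Myl7 alone fell in the Venus-positive fraction at an adjusted p under 0.05, where 1.36% of all features were lower at that threshold. None was higher in limma (0 of 10), where 0.777% of all features were, and 0 of 10 were higher at an unadjusted p under 0.05, where 12.3% of all features were. At an unadjusted p under 0.05, 4 of the 10 were lower (Myl7, Tnnc1, Myl4 and Myh6), against 11.4% of all features. In 7 of the 10 genes both Venus-positive arrays lay below both Venus-negative arrays, a pattern shown by 28.4% of all features. In 0 of the 10 both lay above, against 29.1%. Myl7 and Actn2 count among the 7, and both entered the test through the Venus-negative arrays alone. That filter favours a lower place in the Venus-positive fraction, so these counts are no independent evidence for these genes. The median difference of the 10 was -1.0 (-0.48 with model-based background correction), while that of all features tested was 0.00. Because the list was chosen with earlier results of these data known, these shares and medians only describe it. Two-sided exact permutation of 2 arrays against 2 cannot give a p below 0.333.

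**Figure D1:**
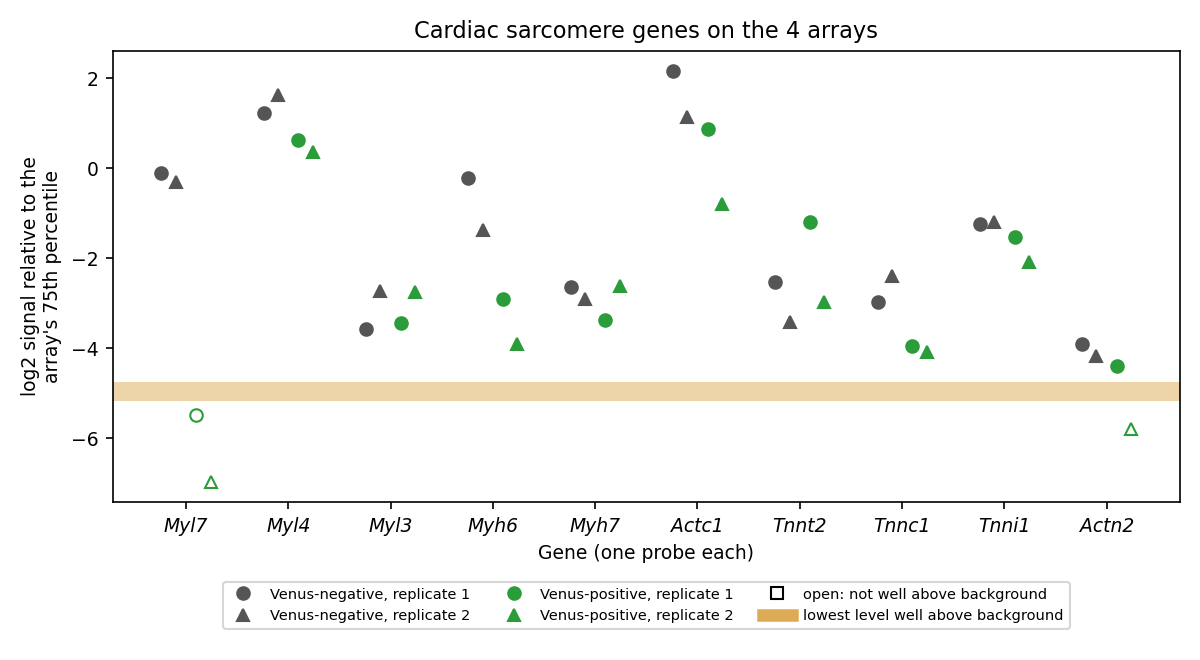
Level of each cardiac sarcomere gene on each of the 4 arrays, as log2 signal relative to the array's 75th percentile. Circles are replicate 1 and triangles replicate 2, grey is Venus-negative and green Venus-positive. Open symbols were not well above background, and the band spans the lowest level that was. Both Venus-positive values of Myl7 and 1 of Actn2 lie below the band.

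Among the light chains, Myl7 is the atrial regulatory light chain and one of the earliest contractile genes of the heart tube. Its level was -0.11 and -0.30 on the Venus-negative arrays and -5.49 and -6.97 on the Venus-positive arrays. It was thus plainly measured in the Venus-negative fraction and not well above background on either Venus-positive array. With those arrays set at the lowest level of any probe that counted as well above background on them, the bound was a 29.8-fold lower level in Venus-positive cells. It is not a strict limit, since some brighter probes did not count (Krt86 at -4.75 and -4.86). This bound leaves out the spread between arrays (adjusted p of the limma fit = 0.0398). When Venus-negative replicate 1 or 2 was left out, the fitted difference was -5.93 and -6.12 with an adjusted p of 0.173 and 0.135, and when replicate 1 or 2 of the Venus-positive fraction was, it was -6.77 and -5.28 with an adjusted p of 0.133 and 0.140. No feature passed in these fits, which leave 1 array in a fraction and whose smallest adjusted p was 0.127 to 0.161 over all features, so the lost call does not bear on the stability of Myl7. With dim probes kept in the test the adjusted p was 0.143, and with model-based background correction (normexp), whose offset compresses dim signals, the log2 difference was -2.45 (adjusted p = 0.0049).

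Myl4, the essential light chain of the atrium and of embryonic muscle, stood at 1.23 and 1.62 in Venus-negative and at 0.63 and 0.36 in Venus-positive cells. The fractions did not overlap, and the difference of -0.93 ± 0.19 SE (a factor of 1.90) did not pass (limma adjusted p = 0.109). Myl3, the essential light chain of ventricle and slow muscle, stood at -3.58 and -2.74 in Venus-negative and at -3.44 and -2.76 in Venus-positive cells. Here the arrays interleaved, with a difference of 0.06 ± 0.41 SE (95% interval -1.09 to 1.21, limma adjusted p = 0.943), against -0.05 ± 0.21 SE with model-based background correction (adjusted p = 0.922). The 3 light chains therefore ranged from not well above background in 1 fraction to overlapping in both. The interval of Myl3 still includes a change of 2-fold in either direction.

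Of the heavy chains, Myh6 encodes alpha myosin heavy chain, the fast cardiac motor, and Myh7 beta myosin heavy chain, the slow motor of the fetal ventricle. The probe that represents Myh6 read -0.22 and -1.37 in Venus-negative and -2.90 and -3.92 in Venus-positive cells. The lowest Venus-negative value lay above the highest Venus-positive value, although replicate 1 exceeded replicate 2 by 1.15 and 1.02 within the 2 fractions. The difference was -2.62 ± 0.57 SE, a factor of 6.13 with a 95% interval of -4.22 to -1.01 (limma adjusted p = 0.113). With model-based background correction it was -1.58 ± 0.28 SE and passed (limma adjusted p = 0.0483). A replicate block, which nothing in the labels calls for, gave -2.62 ± 0.09 SE and also passed (limma adjusted p = 0.0429). The other Myh6 probe, which carries the same accession, was not well above background on any array, at levels of -5.90, -6.32, -6.91 and -7.08, so it gives no fold.

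Myh7, which neighbours Myh6 in the genome, stood at -2.65 and -2.92 in Venus-negative and at -3.38 and -2.62 in Venus-positive cells. The fractions overlapped, and the difference was -0.22 ± 0.31 SE (95% interval -1.08 to 0.65, limma adjusted p = 0.713), turning to 0.16 without Venus-positive replicate 1. Myh6 and Myh7 are closely related in sequence, and how far either probe also detects the other transcript was not examined. Whether the differences of Myh6 and Myh7 differ from each other was not tested.

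On the thin filament, Actc1 encodes cardiac alpha-actin, which is also made in embryonic skeletal muscle. Its level was 2.15 and 1.14 in Venus-negative and 0.87 and -0.79 in Venus-positive cells. The fractions did not overlap but came close, since Venus-negative replicate 2 and Venus-positive replicate 1 were only slightly apart. The difference of -1.60 ± 0.71 SE (95% interval -3.62 to 0.42) did not pass (limma adjusted p = 0.282), and it was -0.77 without Venus-positive replicate 2.

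Tnnt2, cardiac troponin T, ties the troponin complex to tropomyosin and is widely used to mark cardiomyocytes. It was the member with the largest positive difference, at -2.53 and -3.43 in Venus-negative and -1.20 and -2.98 in Venus-positive cells. The fractions overlapped, and the difference of 0.89 ± 0.73 SE rested on Venus-positive replicate 1 (95% interval -1.18 to 2.96, limma adjusted p = 0.521). Without that array the difference was 0.00, and without Venus-positive replicate 2 it was 1.78.

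Tnnc1, the calcium-binding troponin C of heart and slow muscle, stood at -2.97 and -2.41 in Venus-negative and at -3.96 and -4.08 in Venus-positive cells. Both Venus-positive arrays lay below both Venus-negative arrays, by -1.33 ± 0.23 SE or a factor of 2.51 (95% interval -1.97 to -0.69, limma adjusted p = 0.0819). Tnni1, the inhibitory slow skeletal troponin I that the embryonic heart also uses, stood at -1.24 and -1.20 against -1.54 and -2.09. Its difference was smaller, at -0.59 ± 0.22 SE (95% interval -1.22 to 0.03, limma adjusted p = 0.225). The 3 troponin subunits thus differed in sign, with Tnnc1 and Tnni1 negative and Tnnt2 positive, and none of the 3 passed in limma (1 of 3 at an unadjusted p under 0.05).

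At the Z-disc, Actn2, the alpha-actinin of heart and skeletal muscle, stood close to its background limit throughout. It read at -3.92 and -4.17 in Venus-negative and at -4.41 and -5.81 in Venus-positive cells, where only replicate 1 was well above background. The difference of -1.06 ± 0.52 SE (limma adjusted p = 0.316) was -0.37 without Venus-positive replicate 2. Actn2 and Myl7 entered the test through the Venus-negative arrays alone; the other 8 genes were well above background on all 4 arrays.

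**Figure D2:**
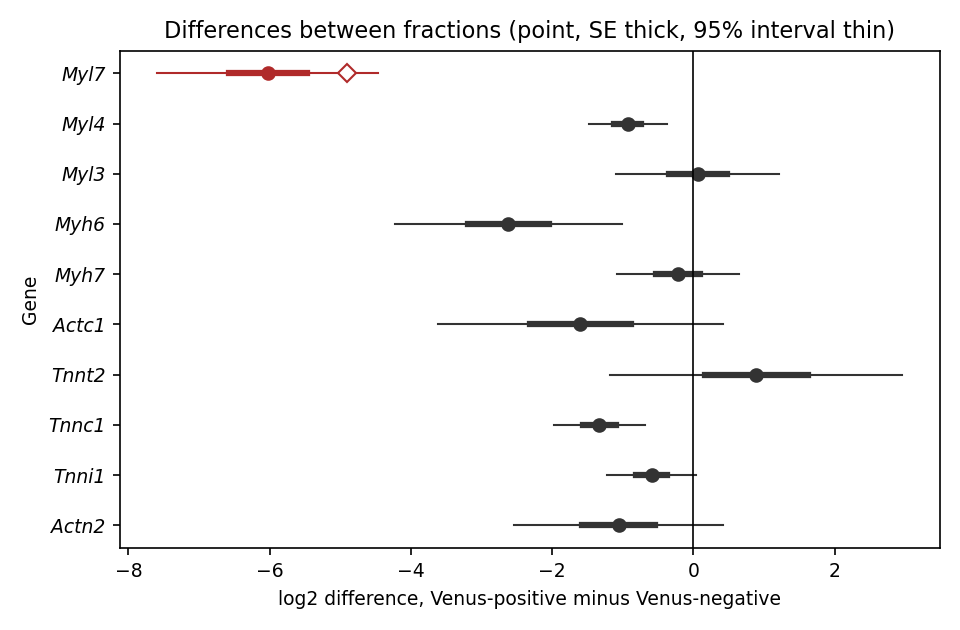
Log2 difference of each gene between the fractions, Venus-positive minus Venus-negative, with the SE as a thick bar and the 95% interval as a thin bar (2 arrays per fraction). Red marks the gene with an adjusted p under 0.05, Myl7, and the open diamond its bound of -4.90. The intervals of Myl4, Myh6 and Tnnc1 also lie below 0, but their adjusted p-values were 0.109, 0.113 and 0.0819.

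Differences between replicates of a fraction were large for several members. Replicate 1 exceeded replicate 2 by at least 1 in both fractions for Myh6 and Actc1 (2 of 10, against 0.531% of all features), and by at least 0.5 for Tnnt2 as well (3 of 10, against 2.42%). Actc1 differed by 1.01 in the Venus-negative and 1.66 in the Venus-positive fraction, and Tnnt2 by 0.90 and 1.78. Myl3 went the other way in both fractions, at -0.85 and -0.69. By sign alone, 5 of the 10 members were higher and 1 lower in replicate 1 in both fractions. Of 21 other heart sarcomere and Z-disc genes, 5 were higher and 7 lower in both (1 higher by at least 0.5, 0 by 1). Of 19 cardiac regulators it was 6 and 9 (1 and 0), and of 10 skeletal muscle genes 4 and 1 (1 and 0). Of 4 calcium handling, channel and secreted genes it was 2 and 1 (1 and 1). Replicates also differed in genes of other cell types, in both directions. Of 11 tested OP9 stromal and adipocyte genes, 8 were higher and 3 lower in replicate 1 in both fractions, 4 of them higher by at least 0.5; the widest was Lum, a stromal matrix proteoglycan named after its values were seen, at 2.11 and 2.53. Of 9 smooth muscle genes, 5 were higher in replicate 1 in both (4 by at least 0.5) and 4 lower. Of 7 blood genes 1 was higher and 4 were lower, and of 9 endothelial genes 0 were higher and 9 lower. The part of these cells in the replicate differences of the sarcomere genes was not tested. The replicate number coincided with the row on the slide and the fraction with the column, so that column and fraction cannot be told apart.

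**Figure D3:**
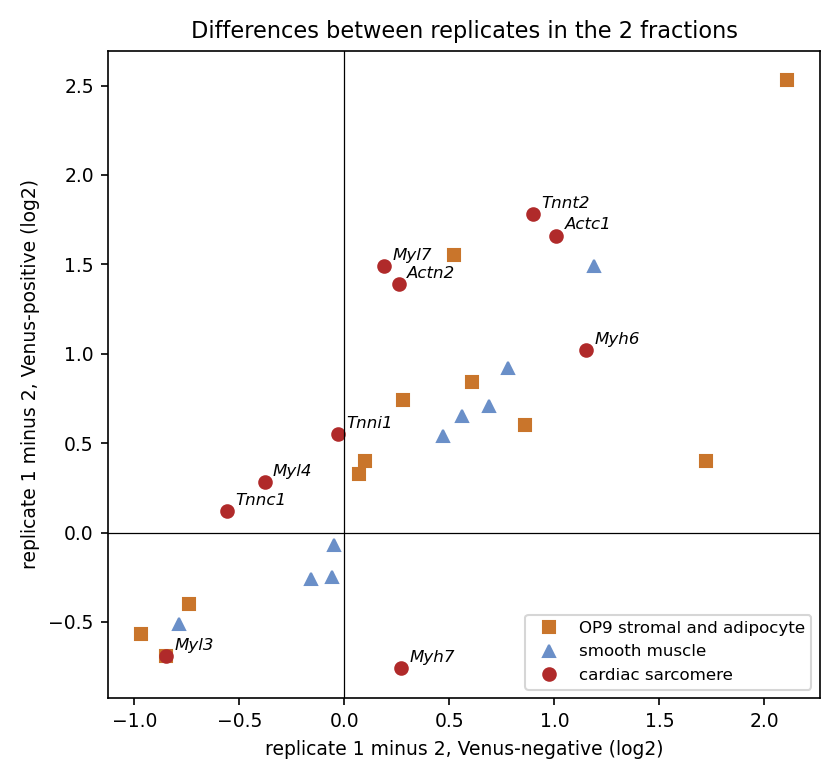
Replicate 1 minus replicate 2 on the log2 scale, in the Venus-negative (horizontal) and Venus-positive (vertical) fraction, for the sarcomere genes (red, named), OP9 stromal and adipocyte genes (orange) and smooth muscle genes (blue). Actc1, Tnnt2, Myh6, Myl7 and Actn2 lie in the upper right, where replicate 1 was higher in both fractions, and Myl3 in the lower left.

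Of 32 other heart sarcomere and Z-disc genes, 21 were tested, 2 fell in Venus-positive cells and 0 rose in limma (before adjustment, 9 had a negative and 4 a positive difference at p under 0.05), with a median of -0.26. Before adjustment, 11.4% of all features were lower and 12.3% higher. Myom2 and Myl2 entered the test through the Venus-negative arrays alone, and Ankrd1 and Trim63 through the Venus-positive arrays alone. That filter favours the direction of each, so these counts are no independent evidence. Pdlim3, a Z-disc protein that binds alpha-actinin, stood at 0.95 and 1.38 in Venus-negative and -2.66 and -2.75 in Venus-positive cells, a difference of -3.87 ± 0.19 SE (limma adjusted p = 0.0342). Fhod3, a formin that assembles sarcomeric actin, stood at 2.05 and 1.79 against 0.29 and 0.04, a difference of -1.76 ± 0.16 SE (limma adjusted p = 0.0395). Neither pair of fractions overlapped. Ankrd1, named after its values were seen, had the largest positive difference of the list, at 1.68 ± 0.33 SE (limma adjusted p = 0.0995). Only 1 of its Venus-negative arrays was well above background.

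Myom2, an M-band protein of the thick filament, had no Venus-positive array well above background. Its bound there was 6.91-fold lower, but it did not pass (limma adjusted p = 0.0613). Myl2, the ventricular counterpart of Myl7, stood at -2.71 and -2.64 against -5.21 and -4.42, the latter pair with 1 array well above background (difference -2.14 ± 0.31 SE, limma adjusted p = 0.0662). In the fits without 1 array or with dim probes kept, in which no feature on the array passed, Pdlim3 and Fhod3 did not pass either. Ttn, the giant spring of the sarcomere, was represented by 4 probes, none well above background on any array. The same held for all probes of Csrp3, Lmod2, Myoz2, Mypn, Nebl and Trim55, whereas Tmod1 and Mylk3 exceeded it on too few arrays to be tested. For Smpx no probe matched the symbol.

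Of 14 genes of cardiac calcium handling, channels and secreted products, only 4 were tested, with a median of -0.61, and none passed in limma (at an unadjusted p under 0.05, 1 was lower and 0 higher). Nppa, the atrial natriuretic peptide, stood at -3.53 and -3.50 in Venus-negative and -5.21 and -4.81 in Venus-positive cells, with 1 Venus-positive array well above background (difference -1.49 ± 0.17 SE, limma adjusted p = 0.0514). Sln, an inhibitor of the calcium pump, likewise with 1 Venus-positive array well above background, had a difference of -0.82 ± 0.97 SE, Gja1, a gap junction protein, -0.39 ± 0.22, and Atp2a2, the calcium pump itself, 0.14 ± 0.11. Nppa and Sln thus entered the test through the Venus-negative arrays alone. Probes of Pln, Casq2, Cacna1c, Slc8a1, Hcn4 and Trdn were not well above background on any array. Ryr2, Nppb, Gja5 and Jph2 exceeded it on too few arrays to be tested. At this signal, differences in those genes were not detectable.

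Among 20 cardiac regulators, 19 were tested, 2 fell and 0 rose in limma (at an unadjusted p under 0.05, 7 were lower and 1 higher), with a median of -0.74. The 2 were Mesp1, which acts in the first mesoderm fated to heart and vessels, and Gata4, a GATA factor of heart and endoderm. Only 1 of the 2 Venus-positive arrays measured Mesp1 well above background, so it entered the test through the Venus-negative arrays alone. Mesp2, Tbx20 and Tbx5 also entered through those arrays alone. That filter favours a lower place in the Venus-positive fraction, so the counts and median of the list are no independent evidence. At the unadjusted threshold, 11.4% of all features were lower and 12.3% higher. Mef2c, named after its values were seen, had the largest positive difference of the list, at 1.27 ± 0.43 SE (limma adjusted p = 0.197). Tbx20, a T-box factor of the heart tube, had no Venus-positive array well above background. Its bound there was 2.44-fold lower (limma adjusted p = 0.0775). Tbx5, with 1 Venus-positive array well above background, stood at -2.45 ± 0.93 SE (limma adjusted p = 0.235). Srf, the gene of the factor that binds CArG boxes and named after its values were seen, stood at 4.13 and 3.96 in Venus-negative and 4.13 and 3.99 in Venus-positive cells, a difference of 0.01 ± 0.12 SE. Another Srf probe, also well above background on all 4 arrays, gave -0.39 ± 0.18 SE.

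Sarcomere genes of other muscle types were set beside these. Of 22 skeletal muscle genes, 10 were tested, 1 fell and 0 rose in limma (before adjustment, 1 was lower and 2 higher at p under 0.05), with a median of -0.15. The 1 that fell was Actn3, the alpha-actinin of fast skeletal fibres, at -1.52 and -1.61 against -3.17 and -2.96 (difference -1.50 ± 0.12 SE, limma adjusted p = 0.0375). Acta1, skeletal alpha-actin, had a difference of -0.95 ± 0.53 SE, Pax3, a factor of muscle precursors, 0.94 ± 0.33, and Tnnt1, slow skeletal troponin T, 0.63 ± 0.12. The defining skeletal regulators Myod1, Myog, Myf5 and Myf6 and the skeletal myosins Myh1, Myh2, Myh3, Myh4 and Myh8 were not well above background on any array. The summed level of the 10 tested genes, on the linear scale in multiples of the array's 75th percentile, was 6.52 and 6.47 in Venus-negative and 9.26 and 8.05 in Venus-positive cells. Such a sum is weighted by the brightest probe, here Tnnt1 at a log2 level of 2.14 and 2.26 against 2.92 and 2.74, while 7 of the 10 skeletal genes had a negative difference.

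Of 11 smooth muscle genes, 9 were tested with a median of -0.38, and none passed in limma (before adjustment, 3 lay above and 1 below at p under 0.05). Mylk, the kinase of the smooth muscle regulatory light chain, had a difference of 1.58 ± 0.35 SE, Cnn1, calponin, -1.29 ± 0.33, Smtn, smoothelin, 1.17 ± 0.13, and Myl9, the smooth muscle regulatory light chain, -0.60 ± 0.27. Myh11, the defining smooth muscle myosin, was not well above background on any array. The summed level of the list was 106 and 74.1 in Venus-negative and 92.5 and 71.1 in Venus-positive cells. In the 11 genes of the actomyosin of all cells the median was -0.05, none passed in limma, and 1 was higher and 1 lower at an unadjusted p under 0.05 (Tpm4 at 0.63 ± 0.17 SE and Actn1 at -0.81 ± 0.25). Their summed level was between 1860 and 2030 on the 4 arrays.

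**Figure D4:**
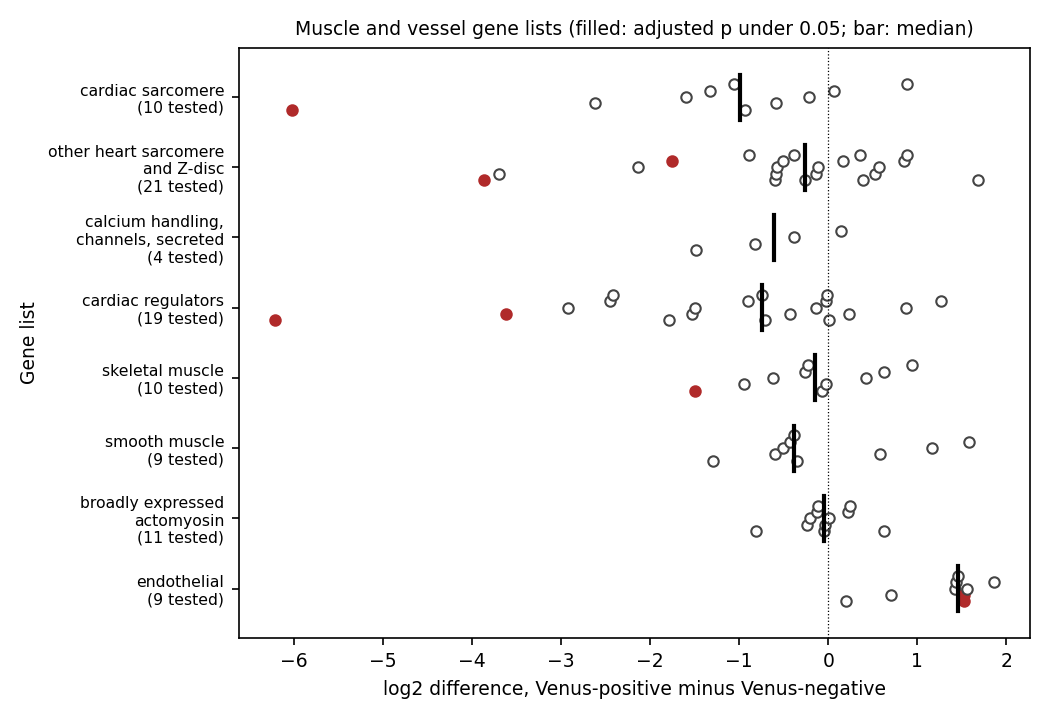
Log2 difference between fractions, Venus-positive minus Venus-negative, of every tested gene of 8 lists, with a bar at each list's median and filled points for an adjusted p under 0.05. The cardiac sarcomere genes reach from Myl7, plotted at its fitted difference although only its bound of -4.90 is measured, to Tnnt2 at 0.89 around a median of -1.0, the broadly expressed actomyosin genes lie between -0.81 and 0.63, and the endothelial genes lie above 0.

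Markers of other cell types that the sort could hold were set beside these values. Of 9 endothelial genes all were tested, 2 rose and 0 fell in limma (8 higher and 0 lower before adjustment at p under 0.05), with a median of 1.46; these were Sox18 (1.53 ± 0.11 SE, adjusted p = 0.0349) and Tek (1.53 ± 0.17, adjusted p = 0.0479). The summed endothelial level was 177 and 226 in Venus-negative and 365 and 450 in Venus-positive cells. The 12 OP9 stromal and adipocyte genes had a median of -0.34 over 11 tested, none called in limma (2 lower and 0 higher at an unadjusted p under 0.05), with summed levels of 77.4 and 71.0 against 64.7 and 46.3. The 8 blood genes had a median of -0.20 over 7 tested, none called in limma (1 lower at an unadjusted p under 0.05), with summed levels of 102 and 150 against 85.9 and 98.3. Of the 4 primitive streak genes 3 fell and 0 rose in limma (4 lower and 0 higher before adjustment at p under 0.05), with a median of -5.03; Eomes stood at -4.91 ± 0.30 SE, Gsc at -5.33 ± 0.37 and Mixl1 at -5.15 ± 0.42. The part of these other cell types in the sarcomere values was not tested.

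For the 8 sarcomere genes well above background on all 4 arrays, the mean profile, each gene centred on its own mean, was 0.49 and 0.30 in Venus-negative and -0.15 and -0.64 in Venus-positive cells. Among 13220 other named genes measured on all arrays, those with the profile nearest to it over the 4 arrays were Wdr31, Sult2a8, Zfp783, Rimkla and Dusp28, at Euclidean distances of 0.0574, 0.0684, 0.0752, 0.0834 and 0.0966. Their differences between fractions were -0.77, -0.76, -0.75, -0.87 and -0.85, and none passed in limma (adjusted p between 0.109 and 0.137). The members themselves lay farther from their own mean profile, from 0.255 for Tnni1 and 0.454 for Myl4 to 1.98 for Myh6 and Tnnt2. The mean thus describes some members much less well than others.

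Series-wide, limma called 137 named genes higher and 257 lower in the Venus-positive fraction, or 259 and 296 with each array centred on its median, which moved the median of all features by 0.07. Between 50.7% and 53.0% of spots were well above background and 0 were saturated. Hoxb6, on which the sort rests, had a level of 1.1 ± 0.17 on the Venus-negative arrays and 2.12 ± 0.17 on the Venus-positive arrays (SD, n = 2), and Kdr was bright in both fractions, at 5.63 ± 0.12 and 6.07 ± 0.02 (SD, n = 2). Neither difference passed in limma, at 1.01 ± 0.16 SE for Hoxb6 (adjusted p = 0.0716) and 0.44 ± 0.11 SE for Kdr (adjusted p = 0.138).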

How the data were processed

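RNA of 4 sorted samples was hybridised to Agilent arrays. The deposited scanner tables hold intensity values; per the file headers, Agilent Feature Extraction (version 10.10.1.1) made them. Its processed signal has background and spatial trend removed array by array. The authors' value table holds the same intensity multiplied by a constant for each array (2.15, 2.44, 1.98 and 2.11, found by comparison with the scanner values), of unstated origin. Its scale is thus linear and genes are not centred; column medians were 41.0, 42.3, 41.0 and 38.1.

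Control and outlier spots were left out, and the log2 signal was taken relative to the 75th percentile of its array (a signal of 347 to 429). Repeated spots were averaged. A probe was kept if well above background on both arrays of a fraction, and a gene was represented by its brightest probe. Symbols came from RefSeq (GRCm38.p6) through accessions, which matched 21465 of 37881. The test was limma 3.58.1 (in R 4.3.3 with version 1.17.8 of data.table) over 23547 features, 13925 of them named genes, with Benjamini-Hochberg adjustment, 2 residual and 1.80 prior degrees of freedom. The procedure was tested on simulated data. For genes dim in 1 fraction the fold is a bound, with each dim array set at its lowest signal well above background or at the gene's own if that was higher. That lowest signal is the dimmest of any probe on the array that counted, and every such bound leaves out the spread between arrays. Some probes brighter than it did not count, and a stricter limit would give smaller folds. The number of arrays limits the precision.

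The members and lists were chosen with earlier results of these data known. Named are all members, and from each list those past the threshold and up to 4 with the largest difference; from lists of other cell types fewer are given. Alternatives were model-based background correction (normexp, offset 50, on median spot signals because mean signals are not among the columns used), median centring, quantile normalisation, dim probes kept, a signal-dependent variance prior, a replicate block, leaving out each array, other probes and the authors' value table.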

Additional observations from a re-analysis of the deposited data

How the results depend on the processing

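With 2 arrays per fraction a call depended on the spread between replicates as well as on the size of the change. Foxo1, named after its values were seen, passed at 0.89 ± 0.09 SE (limma adjusted p = 0.0469), while Myh6 at -2.62 ± 0.57 SE did not. Signals near the background limit bound what can be followed. With normexp 491 genes were higher and 538 lower, 2 sarcomere genes (Myl7 and Myh6) and 4 other sarcomere genes were lower, Myh6 passed (-1.58, adjusted p = 0.0483), Myl7 was at -2.45 and Myl3 turned to -0.05. The offset keeps changes to dim signals small by construction. With dim probes kept 0 genes were higher and 0 lower, so 0 sarcomere and 0 other sarcomere genes passed; at an unadjusted p under 0.05 in limma, 1736 genes were higher and 1783 lower. With the signal-dependent prior 597 were higher and 650 lower, among them 4 other sarcomere genes, and with median centring 259 were higher. The fit without any 1 array called from 0 to 0 genes, sarcomere genes and other sarcomere genes in either direction (1106 to 1514 genes higher and 1111 to 1333 lower at an unadjusted p under 0.05). There Myl7 ranged from -6.77 to -5.28, Myl3 from -0.36 to 0.49, Myh7 from -0.59 to 0.16 and the sarcomere median from -1.23 to -0.68. The remaining 7 genes kept their sign or, for Tnnt2 without Venus-positive replicate 1, reached 0.00.

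The replicate numbers coincided with the row on the slide, but nothing in the labels ties the samples, so they were not taken as pairs. Deviations from the group means correlated with r = 0.413 over 23547 features, which are not independent. With the replicate block 290 genes were higher and 421 lower in limma. Of the sarcomere genes 2 were lower (Myl7 and Myh6, the latter at -2.62 with a limma adjusted p of 0.0429). Of the other sarcomere genes 3 were lower and 1 was higher. Quantile normalisation changed no call of a sarcomere gene. The authors' value table could change none, since it differs only by a constant for each array, which the centring removes. Where no cause is given, the cause was not tested.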
